A study of Homo sapiens with 4 samples.

Results

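S phase is the part of the cell cycle in which the genome is copied, and the 43 genes described here encode proteins of that step. They were taken by symbol from a list drawn up with earlier results of these data known. All 43 were found among the 36601 genes counted in both capture runs. Before S phase, CDC6 and the MCM2 to MCM7 ring are loaded onto replication origins, and GMNN blocks further loading once replication has begun. CDC45, GINS2 and MCM10 then help turn the ring into a working helicase, and polymerases, PCNA and the replication factor C complex copy the strands while RRM1, RRM2, TYMS, DUT and TK1 supply nucleotides and UNG cuts uracil out of DNA. E2F transcription factors bind the promoters of many of these genes around the G1/S boundary, and pluripotent cells are known for short G1 phases and a large share of cells in S phase. By role, the genes fell into 12 of origin licensing and the helicase, 10 of the fork and its polymerases, 6 of nucleotide supply and uracil removal, 8 of chromatin and histone handling, 5 of repair and recombination, and E2F1 and CCNE2 as the 2 G1/S regulators.

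Single-cell RNA-seq was performed on structures grown from H9 human naive embryonic stem (nES) cells, all induced in blastoid medium in microwells with or without dimethyl α-ketoglutarate (dm-αKG), a cell-permeable form of the TCA cycle metabolite. The arms were aggregates collected at 40 h and blastoids collected at 120 h, each without (0 mM) or with (4 mM) dm-αKG in the first 40 h. Every arm received PD0325901, A83-01, LIF, LPA and Y27632 after aggregation, and the blastoid arms alone went on to medium with LPA and Y27632. Capture run 1 held both aggregate arms and 1 blastoid arm per dose, and capture run 2 held 1 further blastoid arm per dose, so that aggregates had 1 arm per dose and blastoids 2. All cells derived from 1 established line. Blastoids with a single cavity were picked by hand and cells were sorted, so the cells describe picked structures and not the whole culture. Cells of an arm are not replicates, and the 2 runs are described by the study as separate experiments. The dose tests had run in the model and 1 residual degree of freedom. That 1 degree of freedom is how far the dose change differed between 2 runs, and it had little weight in the p-values. Tests between cell classes had 3 residual degrees of freedom over 4 arms, of which 2 share each run. The variance was largely borrowed across genes, with prior degrees of freedom of 35.8 (Epi-like dose), 26.3 (TE-like dose) and 16.5 (classes). For the difference between the dose effects of both classes they were infinite, so a gene's own spread had no weight in those p-values.

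The 2 runs held 9431 and 15133 cell barcodes with 144122560 and 200278140 unique molecular identifiers (UMIs), and 28 barcodes occurred in both runs. After assignment by hashtag and removal of low-count and high-mitochondrial barcodes, 1201 and 1054 aggregate cells (0 and 4 mM), 426 and 1092 blastoid cells of run 1 and 3900 and 4974 of run 2 remained, with arm medians of 15453 to 31693 UMIs per cell. Blastoid cells were split into trophectoderm (TE)-like and epiblast (Epi)-like cells. A cell was TE-like where its UMIs of KRT8, KRT18, GATA3 and CLDN4 outnumbered those of POU5F1, DPPA5, DPPA4, L1TD1 and TDGF1. The TE-like sums rested on 18 and 49 cells in run 1 and on 181 and 170 in run 2 (0 and 4 mM), against 408, 1043, 3719 and 4804 Epi-like cells. Only 1 and 2 cells of the aggregates met the TE rule, and aggregates were not split. Levels below are UMIs of the gene in a sum of cells over all UMIs of that sum, scaled to 1000000 (CPM), a unit with no length scaling. Markers outside the rule fitted the split, since 17 of 17 TE markers tested were higher in TE-like cells and 14 of 18 epiblast markers were lower, with 1 higher. The TE-like sums still carried 617 to 1258 CPM of the 5 epiblast markers of the rule, against 4754 to 4877 CPM in Epi-like cells. Primitive endoderm markers summed to 299 to 484 CPM in TE-like and 60.6 to 73.4 CPM in Epi-like cells. The part of these other cell types in the results was not tested.

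All 43 genes were detected in every aggregate, Epi-like and TE-like sum, and the promoters available for them shared sequence features that their selection by name had not used. RefSeq promoter windows of GRCh38.p14, from 250 bases before to 50 bases after the transcription start, were available for 35 of the 43 genes. An E2F-like motif, TTTGGCGC, TTTCCCGC, TTTGGCGG or TTTCGCGC on either strand, occurred for 21 of those 35 genes (60%). Among all 27305 genes with RefSeq promoters, a share of 4.05% held one, and among genes of at least 20 CPM 8.11% did. For comparison, 18 of 39 other replication genes and 6 of 44 G2/M genes held it. The CCAAT box was found for 26 of the 35 genes (74.3%), against 39.7% of all genes and 45.1% of genes of at least 20 CPM. G2/M genes held it nearly as often (70.5%), and other replication genes in 53.8% of cases. Windows just upstream of the RefSeq start of some of the 43 genes are printed 5′ to 3′ on the strand of the gene. E2F-like motifs and CCAAT boxes are in capitals. TIPIN and SLBP, named below, are not among them.
MCM6, chr2:135876444-135876543, minus strand: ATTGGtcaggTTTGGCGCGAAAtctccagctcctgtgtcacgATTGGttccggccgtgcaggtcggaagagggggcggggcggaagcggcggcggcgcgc
CDC6, chr17:40287779-40287878, plus strand: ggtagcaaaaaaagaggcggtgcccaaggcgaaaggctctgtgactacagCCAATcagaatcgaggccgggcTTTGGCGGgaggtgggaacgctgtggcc
HELLS, chr10:94545758-94545787, plus strand: aggtatcgcgagatgacaggatTTTCCCGC
DTL, chr1:212035718-212035747, plus strand: caatcagagagcgtgacgtcagTTTGGCGC
GINS2, chr16:85688955-85689054, minus strand: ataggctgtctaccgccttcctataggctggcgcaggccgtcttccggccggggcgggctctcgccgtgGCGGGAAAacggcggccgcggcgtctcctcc
GMNN, chr6:24775313-24775412, plus strand: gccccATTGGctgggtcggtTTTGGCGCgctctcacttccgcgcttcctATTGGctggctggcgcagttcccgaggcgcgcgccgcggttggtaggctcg
E2F1, chr20:33686386-33686485, minus strand: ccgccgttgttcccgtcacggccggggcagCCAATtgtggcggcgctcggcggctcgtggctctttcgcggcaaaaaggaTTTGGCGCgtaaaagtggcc
RRM1, chr11:4094585-4094684, plus strand: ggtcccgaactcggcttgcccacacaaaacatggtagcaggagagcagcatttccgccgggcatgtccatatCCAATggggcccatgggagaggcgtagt
UNG, chr12:109097497-109097596, plus strand: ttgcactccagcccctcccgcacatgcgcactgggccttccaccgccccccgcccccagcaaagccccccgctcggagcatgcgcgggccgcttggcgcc
In MCM6, 2 overlapping E2F-like motifs lay between 2 CCAAT boxes, and the HELLS, DTL, GINS2 and GMNN stretches lay inside the longer GENCODE gene, those of HELLS and DTL within or across an exon of it. RRM1 held a CCAAT box but none of the 4 E2F-like motifs in the stretch shown. The UNG stretch held neither. These are matches of letters and not sites of measured binding, and a stretch without them says only that these letters are absent there.

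In aggregates at 40 h, the S phase genes were lower with dm-αKG as a group. Their summed level was 3437 CPM at 0 mM and 3010 CPM at 4 mM, a log2 ratio of −0.19, or 12.4% less. The 4 mM arm also kept fewer of its singlets (55.7% against 71.7%) and had a higher median mitochondrial share (5.16% against 4.19%). In a list of 11 immediate early and p53 or stress response genes, 10 were higher at 4 mM and the sum was 387 CPM at 0 mM and 485 CPM at 4 mM. The part of these differences in the lower S phase sum was not tested. Thinned to 5000 UMIs per cell, the median aggregate cell held 16 UMIs of these genes at 0 mM and 14 at 4 mM. Fewer cells in S phase and less of these RNAs per cell cannot be told apart in such sums. With 1 arm per dose there is no test and no replicate check, and the exact Poisson 95% intervals given here cover counting error only. Of the 43 genes, 34 were lower and 9 higher, with a median log2 ratio of −0.17, beside −0.03 over all genes of at least 20 CPM. Past 1.2-fold, 12 of the 34 genes with at least 20 CPM were lower, against 11% of all genes at that level, and 0 were higher, against 7.33%.

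The licensing and helicase group was lower for 11 of its 12 genes, from 875 to 748 CPM in sum. MCM6, a subunit of the helicase ring (GRCh38 chr2:135839626-135876443, minus strand), had the lowest ratio of the 43 genes. It stood at 97.7 CPM (94.5 to 101) at 0 mM and at 61.8 CPM (59.1 to 64.7) at 4 mM, a log2 ratio of −0.66. Its ring partner MCM4 stood at 174 and 137 CPM (−0.34), and MCM10, a helicase activator, at 40.0 and 28.1 CPM (−0.50). The exception in the group was MCM3, at 107 and 117 CPM. Of the fork genes, 9 of 10 were lower, among them TIPIN, which stabilises stalled forks (37.4 and 25.8 CPM, −0.53), and PRIM1, the catalytic primase subunit (67.9 and 48.6 CPM, −0.48). NASP, a histone chaperone, gave 18.8 to 24.7% of the UMIs of the 43 genes in every sum, and HELLS, a chromatin remodeller needed for DNA methylation, 4.71 to 10.1%. NASP alone, at 779 CPM (0 mM) and 644 CPM (4 mM), fell by 135 CPM, while the sum of all 43 genes fell by 428 CPM. Without NASP and HELLS the log2 ratio of the sum was again −0.19.

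The nucleotide and uracil genes did not share one direction in aggregates. RRM1, the large subunit of ribonucleotide reductase, stood at 65.7 and 48.0 CPM (−0.45), and DUT, which removes dUTP, at 199 and 146 CPM (−0.44). TYMS, which makes dTMP, stood at 94.9 and 108 CPM (0.18), the highest ratio of the 43. UNG, a uracil glycosylase (0.17), and TK1, thymidine kinase (0.14), were likewise higher at 4 mM. For DUT, which has 8 named pseudogenes, and for the other 9 genes with such copies, the counting could have split reads. Counting intervals of the 2 arms were apart for 25 of the 43 genes, counted at any level, that were lower and 6 that were higher. Of genes of at least 20 CPM, 31.2% were apart and lower and 20% apart and higher. The count of lower genes was above that background and that of higher genes was not. G2/M genes moved the same way, since 43 of 52 were lower and their sum went from 4713 to 4267 CPM (log2 −0.14). The 45 other replication genes had a median of −0.03, equal to that of all genes.

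**Figure D1:**
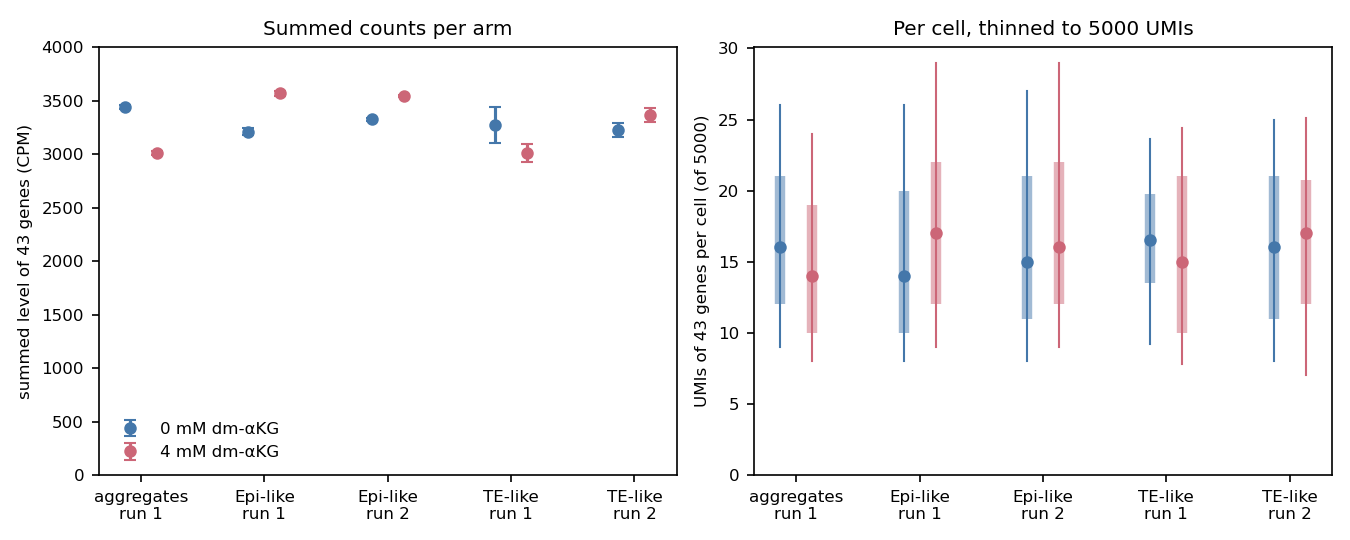
Summed level of the 43 S phase genes, in CPM, for each arm and cell class at 0 and 4 mM dm-αKG, with exact Poisson 95% intervals that cover counting error only. The aggregate sum is lower at 4 mM (3437 and 3010 CPM), the Epi-like sum is higher at 4 mM in both runs, and the TE-like sum is lower in run 1 and higher in run 2.

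In Epi-like cells of blastoids at 120 h, treated in the first 40 h, the direction was the opposite. The summed level was 3210 and 3566 CPM in run 1 and 3326 and 3543 CPM in run 2 (0 and 4 mM), with log2 ratios of 0.15 and 0.09, or 11.1% and 6.52% more. Both arms at 4 mM were above both at 0 mM. The arms differed as well in the share of singlets kept, 44.8% and 73.1% in run 1 and 81.0% and 89.0% in run 2. Within the Epi-like cells, the 4 TE markers of the rule summed to 232 and 328 CPM in run 1 and to 228 and 295 CPM in run 2 (2 higher and 1 lower by test), while the 18 TE markers outside it stood at 187 and 197 CPM in run 1 and at 214 CPM at both doses in run 2. Their part in the result was not tested. The thinned median per cell was 14 and 17 UMIs in run 1 and 15 and 16 in run 2. In edgeR's quasi-likelihood test with run in the model and Benjamini-Hochberg adjustment over 17014 genes, 5 of the 43 genes rose (HELLS, ATAD2, DTL, CDC6 and USP1) and 0 fell, against 5.2% of all genes higher and 3.49% lower (8.69% in both directions). At an unadjusted p under 0.05 the counts were 11 and 0, and DESeq2 called 1 gene higher (HELLS) and 0 lower. Among genes of at least 20 CPM the shares called were 9.48% higher and 4.69% lower. The 5 of 43 genes were therefore close to that background. Of the genes that rose, 2 were of licensing, 2 of chromatin and 1 of repair, and none belonged to the fork, nucleotide and uracil or G1/S groups. The call rested on pairing the arms by run, and without that block 0 genes passed. With every cell thinned to 5000 UMIs 0 passed as well.

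HELLS (chr10:94545329-94613905, plus strand), whose upstream stretch ends in an E2F-like motif, stood at 266 CPM at 0 mM and 359 CPM at 4 mM in run 1. In run 2 it stood at 307 and 353 CPM. The 2 doses did not overlap in HELLS, though the 0 mM arm of run 2 was only 46.7 CPM below its 4 mM arm. The fitted log2 fold change was 0.31 (SE 0.065, adjusted p = 0.00136), with 0.40 and 0.23 in the 2 runs. HELLS made up 93.7 of the 357 CPM gained in run 1 and 46.7 of 217 CPM in run 2, and NASP 84.9 and 61.0 CPM. Without both genes the sums were 2342 and 2520 CPM in run 1 and 2355 and 2464 CPM in run 2, log2 ratios of 0.11 and 0.07.

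ATAD2 encodes a bromodomain ATPase of replicating chromatin. Its levels were 23.4 and 32.8 CPM in run 1 and 26.7 and 30.1 CPM in run 2 (0 and 4 mM), with no overlap between doses. ATAD2 rose by 0.29 on the log2 scale (SE 0.075, adjusted p = 0.0108). DTL, the substrate receptor of a ubiquitin ligase that removes licensing factors in S phase, measured 37.0 and 48.7 CPM in run 1 and 40.6 and 44.8 CPM in run 2. DTL did not overlap between doses either, and its fold change was 0.24 (SE 0.069, adjusted p = 0.0221). CDC6, the loading factor of the MCM ring, measured 53.1 and 63.2 CPM in run 1 and 57.6 and 66.1 CPM in run 2. Its gain was equal in both runs at 0.22 (SE 0.065, adjusted p = 0.0258). For USP1, a deubiquitinase of PCNA and of the Fanconi pathway, levels of 102 and 121 CPM in run 1 and 108 and 124 CPM in run 2 gave 0.22 (SE 0.063, adjusted p = 0.0227). Both doses were apart for CDC6 and USP1 as well.

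The other 38 genes did not pass, with log2 fold changes of −0.10 to 0.20 and adjusted p of 0.0502 to 0.976. MCM4 (0.19, adjusted p = 0.0502) and FEN1, the flap endonuclease of lagging strands (0.20, adjusted p = 0.0516), lay just outside the threshold. The ring subunits differed among themselves, with fitted log2 values of 0.18 for MCM2, 0.10 for MCM3, 0.19 for MCM4, −0.04 for MCM5, −0.02 for MCM6 and 0.05 for MCM7. Over the 43 genes, 33 had a positive value and the median was 0.06, beside 0.02 for all genes of at least 20 CPM. On CPM, 17 of the 43 genes, counted at any level, had both 4 mM arms above both 0 mM arms, and 3 had them below. Of genes of at least 20 CPM, 30% had them above and 20.6% below. Role by role, the chromatin genes summed to 1043 CPM at 0 mM and 1237 CPM at 4 mM (run 1) and to 1141 and 1255 CPM (run 2), and NASP and HELLS made up most of both differences. The licensing genes summed to 764 and 866 CPM (run 1) and to 807 and 835 CPM (run 2). The fork genes summed to 629 and 638 CPM (run 1) and 621 and 644 CPM (run 2). In CPM this difference was smaller than that of the licensing genes in both runs. In run 2 the log2 ratios of both groups were 0.05.

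Of 45 replication genes outside the 43, 5 rose (11.1%) and 0 fell in Epi-like cells. This was close to the 9.48% of genes of at least 20 CPM called higher (5.2% of all genes). Their median log2 value was 0.02, as for all genes of at least 20 CPM. TICRR, which helps load CDC45 at origins, rose by 0.75 at a mean of 15.1 CPM (adjusted p = 7.08e-07). CDC25A, the phosphatase that activates CDK2, measured 38.8 and 55.3 CPM in run 1 and 45 and 51.0 CPM in run 2 (log2 0.31, adjusted p = 0.00327). GINS1, of the same helicase complex as GINS2, measured 39.9 and 52.6 CPM and 46.3 and 53.0 CPM (0.28, adjusted p = 0.00629). The checkpoint kinase CHEK1 (0.22, adjusted p = 0.0240) and the histone chaperone subunit CHAF1A (0.21, adjusted p = 0.0407) also rose, with no overlap of doses in these genes. Of 12 inhibitors and repressors of S phase entry, CDKN1B rose, at 31.8 and 40.1 CPM in run 1 and 33.1 and 37.3 CPM in run 2 (0.23, adjusted p = 0.0280). The summed G2/M genes differed little by dose, at 4021 and 4048 CPM in run 1 and 4365 and 4411 CPM in run 2.

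**Figure D2:**
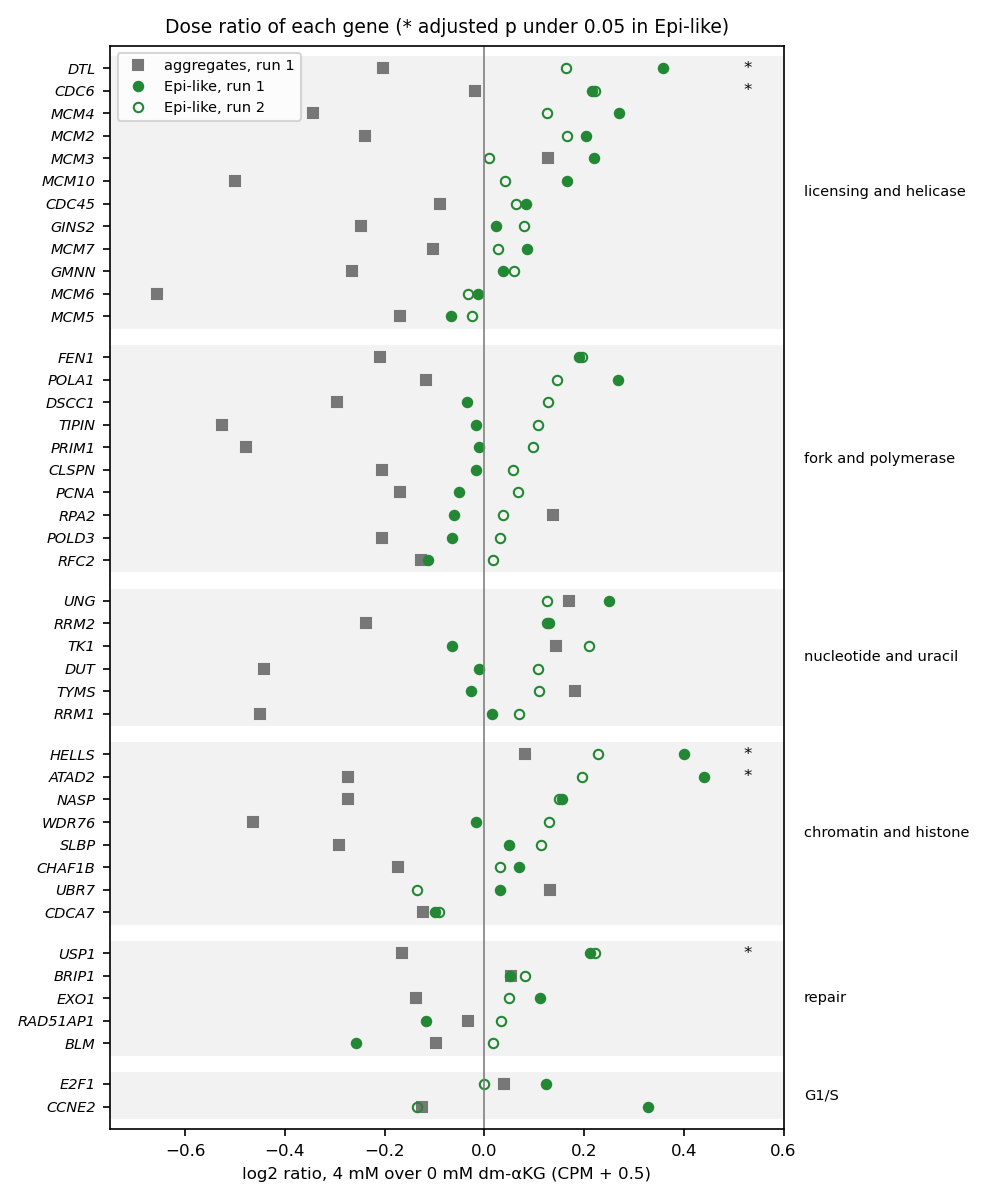
Change with dm-αKG (log2, 4 mM over 0 mM) for each of the 43 genes, grouped by role, in aggregates (CPM, no replicate) and in Epi-like cells of runs 1 and 2 (scaled by trimmed means). Most genes lie below 0 in aggregates and above 0 in Epi-like cells, with HELLS and ATAD2 highest in run 1 and MCM6 lowest in aggregates.

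Setting both stages side by side, 24 of the 43 genes (55.8%) were lower at 4 mM in aggregates and higher at 4 mM in Epi-like cells of both runs, and 0 showed the reverse. Among 5090 genes of at least 20 CPM the shares were 23.9% and 15.3%. The difference between the stages was not tested, because aggregates had 1 arm per dose. On CPM, HELLS, UNG, TYMS and BRIP1 were higher at 4 mM in aggregates and in Epi-like cells of both runs.

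Within run 1, the Epi-like cells at 120 h were also set beside aggregates at 40 h at the same dose, where time and culture stage cannot be told apart and which reuse the arms above. At 0 mM the summed level was lower at 120 h by 6.63% (log2 −0.10), with 30 genes lower, 13 higher and a median of −0.08, the same as over all genes. The 11 immediate early and stress response genes summed to 387 CPM in aggregates and 777 CPM in Epi-like cells at 0 mM and to 485 and 833 CPM at 4 mM, the 0 mM blastoid arm kept 44.8% of its singlets, and the part of either in these ratios was not tested. At 4 mM the S phase sum was higher by 18.5% (log2 0.24), with 31 genes higher, 12 lower and a median of 0.18, beside 0.01 over all genes. Past 1.2-fold at 4 mM, 13 of 34 genes of at least 20 CPM were higher against 20.3% of all genes, and 0 lower against 17.4%. At 0 mM the counts were 3 higher and 5 lower, against 11.7% and 23%. Counting intervals were apart for 4 genes higher and 13 lower at 0 mM, against 18.9% and 35.5% of all genes, and for 25 higher and 3 lower at 4 mM, against 34.1% and 31.5%. HELLS was higher at 120 h at both doses, with log2 ratios of 0.64 (0 mM) and 0.99 (4 mM), and so was UNG (0.33 and 0.44). MCM6 had ratios of −0.47 and 0.21, ATAD2 of −0.05 and 0.70, and TIPIN of 0.04 and 0.58.

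TE-like and Epi-like cells of the same blastoids held like summed levels of S phase RNA, while single genes differed in both directions. The TE-like sums were 3270 and 3008 CPM in run 1 and 3228 and 3363 CPM in run 2 (0 and 4 mM). The log2 ratios to the Epi-like sum of the same arm were 0.03, −0.25, −0.04 and −0.08 (mean −0.08, SD 0.116, n = 4), so neither class was higher in every arm. Thinned medians were 15 to 17 UMIs per TE-like cell and 14 to 17 per Epi-like cell. In edgeR's test on the 8 class sums, which paired both classes of an arm, 14 of the 43 genes were higher in TE-like cells and 9 lower, against 22.5% and 25.6% of the 13174 genes tested. The classes differ at large, with 48.1% of all genes called, and the 23 of 43 genes called are near that background. Among genes of at least 20 CPM the shares called were 34.8% higher and 22.9% lower (57.7% in both directions). With library totals in place of trimmed-mean scaling the split turned to 6 higher and 16 lower, and 15 calls were shared. Unscaled, the median of all genes was itself −0.10 to −0.15 (log2) in the 4 arms, and scaled it was −0.05 to 0.13. CDCA7, GMNN, MCM7, RRM1, DUT, TYMS, PCNA and CDC45 were called higher with scaling and not without it. Leaving out either arm of run 2 left 9 genes higher.

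The genes higher in TE-like cells were 4 of licensing (CDC45, CDC6, MCM7, GMNN), 2 of the fork (TIPIN, PCNA), 4 of the nucleotide group (RRM2, DUT, RRM1, TYMS) and 4 of chromatin (SLBP, ATAD2, CDCA7, NASP). The genes lower were DTL, CLSPN, RFC2, PRIM1, TK1, UNG, HELLS, BRIP1 and E2F1. In TE-like cells TIPIN (chr15:66336191-66386746, minus strand) stood at 85.4 and 63.8 CPM in run 1 and at 72.1 and 66.7 CPM in run 2 (0 and 4 mM). In Epi-like cells it stood at 38.3, 38.8, 33.5 and 35.5 CPM in the same order. Every TE-like sum was thus above every Epi-like sum, and TIPIN was 2.25-fold higher (log2 1.17, SE 0.109, adjusted p = 2.71e-08). SLBP binds the stem-loop that ends replication-dependent histone mRNAs. SLBP measured 180, 146, 131 and 150 CPM in TE-like cells and 93.5, 99.1, 88.1 and 93.7 CPM in Epi-like cells. The classes did not overlap, and SLBP was 1.83-fold higher (log2 0.87, SE 0.0909, adjusted p = 1.37e-07). RRM2, the small subunit of ribonucleotide reductase, measured 94.2, 89.2, 70.4 and 71.8 CPM against 59.7, 67.0, 56.3 and 60.4 CPM, again without overlap (log2 0.59, SE 0.0977, adjusted p = 5.40e-05).

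ATAD2 measured 24.1, 52, 42.6 and 48.4 CPM in TE-like cells and 23.4, 32.8, 26.7 and 30.1 CPM in Epi-like cells. The 0 mM sum of run 1, from 18 cells, lay among the Epi-like values, and the other TE-like sums lay above them (log2 0.84, SE 0.124, adjusted p = 1.28e-05). CDC6 at 85.4, 56.4, 72.8 and 84.4 CPM overlapped the Epi-like range of 53.1 to 66.1 CPM through its run 1 4 mM sum, with a log2 value of 0.49 (SE 0.114, adjusted p = 0.00153). CDCA7, a cofactor of HELLS, measured 37.2, 40.3, 30.2 and 27.8 CPM against 29.1, 27.8, 28.0 and 25.9 CPM (log2 0.46, SE 0.129, adjusted p = 0.00570). Its classes overlapped in run 2.

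HELLS was the member lower by most in TE-like cells among those of at least 20 CPM. It measured 158, 142, 186 and 195 CPM, against 266, 359, 307 and 353 CPM in Epi-like cells. No TE-like sum reached the lowest Epi-like sum, and the log2 value was −0.71 (SE 0.102, adjusted p = 8.97e-06). UNG stood at 72.3, 63.2, 67.1 and 51.2 CPM against 101, 123, 107 and 115 CPM (log2 −0.65, SE 0.110, adjusted p = 6.41e-05). TK1 stood at 28.5, 17.3, 31.5 and 27.4 CPM against 50.6, 49.6, 43.4 and 49.4 CPM (log2 −0.63, SE 0.149, adjusted p = 0.00174). For both of these enzymes the classes did not overlap, in contrast to the higher level of RRM2. PRIM1 stood at 30.7, 30.3, 44.3 and 36.2 CPM against 63.4, 64.4, 59.8 and 63.0 CPM, also without overlap (log2 −0.54, SE 0.127, adjusted p = 0.00156). DTL was lower by fit (log2 −0.48, adjusted p = 0.00725) but stood at 37.2 CPM in TE-like cells of run 1 at 0 mM, level with the 37.0 CPM of its Epi-like cells. E2F1, an activating E2F factor, averaged 18.5 CPM and measured 15.3, 13.6, 11.4 and 10.5 CPM against 23.8 to 26.6 CPM (log2 −0.86, adjusted p = 0.000183).

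Within the MCM ring, MCM7 passed (log2 0.31, adjusted p = 0.0186), at 127, 87.9, 117 and 98.2 CPM in TE-like and 90.9 to 100.3 CPM in Epi-like cells, with overlap. MCM2 (−0.18), MCM3 (−0.03), MCM4 (0.09), MCM5 (−0.13) and MCM6 (−0.02) did not pass, with adjusted p of 0.237 to 0.880. The 20 genes that did not pass ranged from −0.46 to 0.57. On CPM without scaling, 3 of the 43 genes, counted at any level, were higher in every TE-like sum (RRM2, SLBP and TIPIN) and 15 were lower. Of genes of at least 20 CPM, 16.4% were higher and 33.1% lower. The median of the 43 genes was −0.02, beside 0.10 for all genes of at least 20 CPM. Of 52 G2/M genes, 22 were called higher in TE-like cells by the scaled test and 5 lower, against 22.5% and 25.6% of all genes. Their unscaled sums were 3403 and 4453 CPM in TE-like cells of run 1 and 4033 and 4204 CPM in run 2 (0 and 4 mM). In Epi-like cells they were 4021 and 4048 CPM in run 1 and 4365 and 4411 CPM in run 2. The TE-like sum was the higher one in run 1 at 4 mM only.

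**Figure D3:**
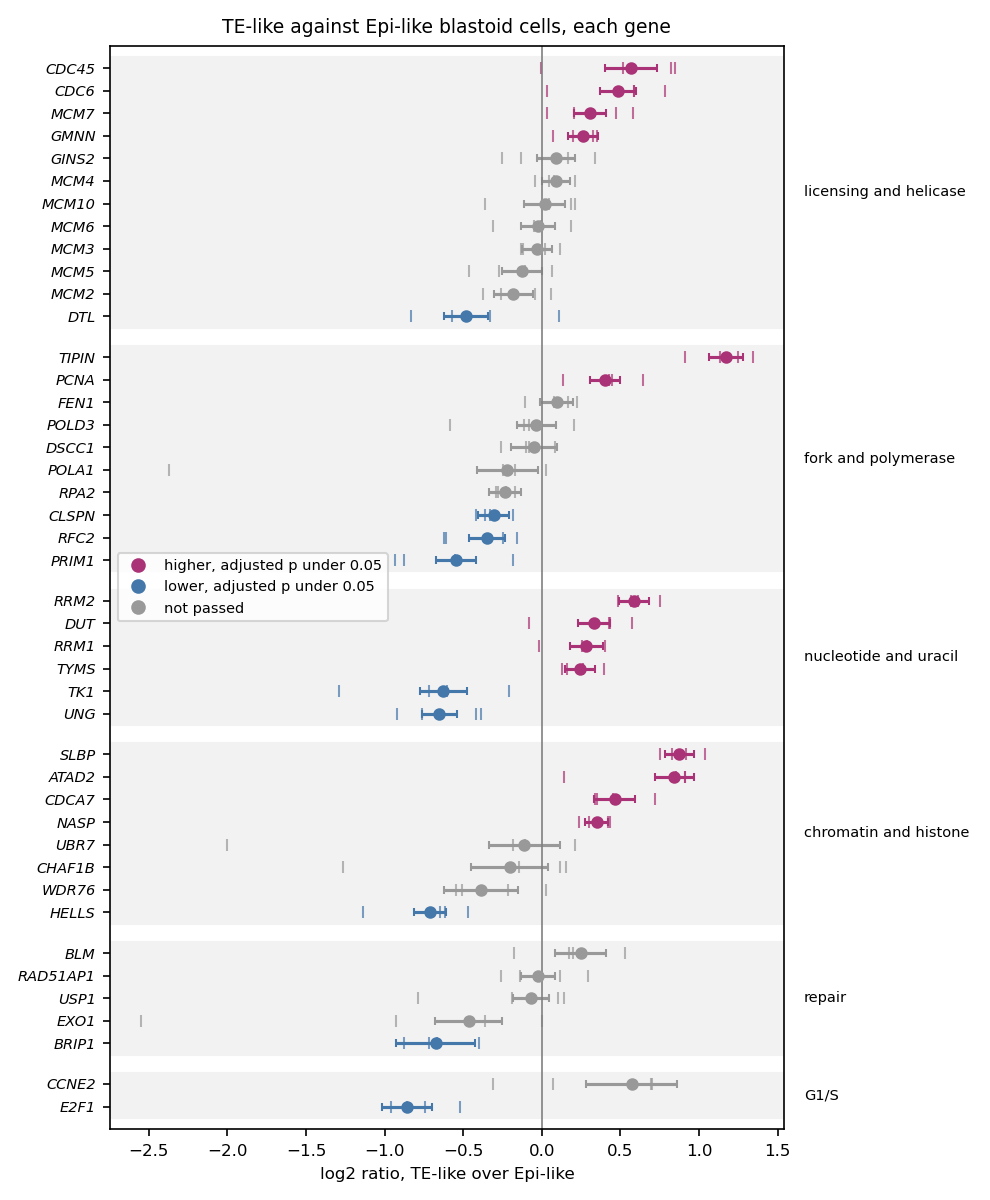
Fitted log2 fold change of TE-like over Epi-like cells for each of the 43 genes, grouped by role (point, with bars of 1 SE), and the scaled ratio in each of the 4 blastoid arms (ticks), coloured where the adjusted p was under 0.05. TIPIN, SLBP and ATAD2 lie highest and HELLS, UNG and E2F1 among the lowest, while MCM2 to MCM6 lie near 0.

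Of the 45 other replication genes, 4 were higher in TE-like cells (8.89%) and 7 lower (15.6%). Both shares were below those of all genes tested, 22.5% and 25.6%. Cyclin E1 (CCNE1, log2 0.74, adjusted p = 6.44e-05) and the polymerase ε subunit POLE3 (0.46, adjusted p = 0.000842) were higher. WDHD1, which couples the helicase to polymerase α, measured 30.7, 36.5, 43.9 and 38.3 CPM in TE-like and 135, 120, 155 and 142 CPM in Epi-like cells (−1.63, adjusted p = 2.54e-10). No other replication gene of the list and of at least 20 CPM was lower by as much, and GINS1 (−0.88), TIMELESS, the partner of TIPIN (−0.85), and POLD1 (−0.83) followed. TIPIN and TIMELESS, which form 1 complex, thus had opposite signs. Among inhibitors of S phase entry, CDKN1C (2.31, in 3 of the 4 arms, with 6.57 CPM in TE-like and 19.7 CPM in Epi-like cells in run 1 at 0 mM) and the repressor E2F8 (2.31) were higher, and CDKN1B (−1.07) and E2F7 (−1.90) lower. CDKN1A also passed (0.64), but it was higher in only 2 of the 4 arms.

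**Figure D4:**
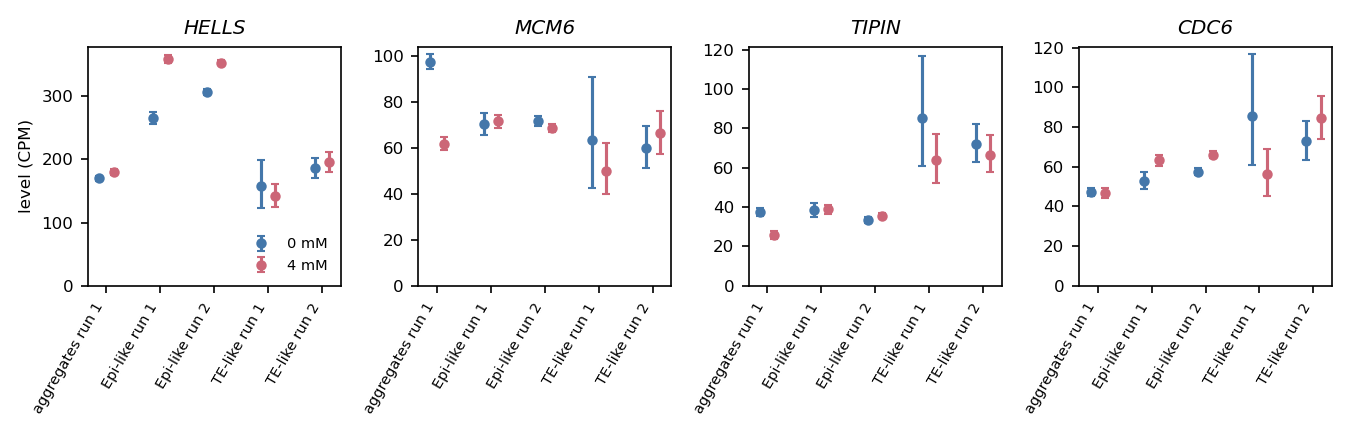
CPM of HELLS, MCM6, TIPIN and CDC6 in each of the 10 sums, with exact Poisson 95% intervals for counting error. HELLS is highest in Epi-like cells, TIPIN is highest in TE-like cells, and MCM6 is highest in aggregates at 0 mM (97.7 CPM). CDC6 overlaps between TE-like and Epi-like cells.

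In TE-like cells no effect of dm-αKG on the S phase genes was detectable. The summed log2 ratio was −0.12 in run 1 and 0.06 in run 2, with opposite signs. The G2/M genes summed to 3403 and 4453 CPM in run 1 and to 4033 and 4204 CPM in run 2 (0 and 4 mM), with 41 of 51 tested positive, a median log2 value of 0.17 and 0 called. In edgeR's test over 9104 genes, 0 of the 43 genes passed, against 1.44% of all genes (0.648% higher and 0.791% lower). At an unadjusted p under 0.05, 0 were higher and 2 lower (MCM7 and RAD51AP1), and DESeq2 called 0. The fitted log2 values ran from −0.53 to 0.55, with 16 positive and a median of −0.03. On CPM, 2 of the 43 genes, counted at any level, had both 4 mM sums above both 0 mM sums, and 8 had them below. Of genes of at least 20 CPM, 23% had them above and 18% below. HELLS measured 158 and 142 CPM in run 1 and 186 and 195 CPM in run 2, and CDC6 85.4 and 56.4 CPM and 72.8 and 84.4 CPM, so neither went one way in both runs. The run 1 control sum held 456611 UMIs, and changes of the size seen in Epi-like cells may lie under what these sums can show. The test of the difference between the dose effects in both classes called 0 of the 43 genes with edgeR and 0 with DESeq2, against 0.774% of all 13174 genes (0.38% higher and 0.395% lower). At an unadjusted p under 0.05 it gave 0 higher and 2 lower (UNG and TK1). For HELLS that difference was −0.32 (adjusted p = 0.802), so the gain of HELLS in Epi-like cells was not shown to be particular to them. Of 8 inhibitors tested in TE-like cells, E2F8 (1.34, adjusted p = 0.0265) and CDKN1C (1.02, adjusted p = 0.0485) rose with dose. CDKN1C rested on 3 UMIs in the run 1 control sum (6.57 CPM), against 101 CPM at 4 mM there and 94.9 and 139 CPM in run 2. E2F8 rested on 5 UMIs in that control sum (11.0 CPM), against 35.9 CPM at 4 mM there and 8.38 and 19.6 CPM in run 2.

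Across single cells of aggregates and Epi-like arms, thinned to 5000 UMIs, each gene was set against the sum of the others. The median Pearson r over the 6 arms was 0.37 for DUT, 0.29 for CLSPN, 0.28 for UNG, 0.26 for RRM2 and 0.25 for CDC6. The lowest values were 0.05 for UBR7 and POLA1, 0.06 for MCM2, 0.07 for BRIP1 and 0.08 for CHAF1B. These describe cells that share libraries, and in counts this sparse (a mean of 0.0376 UMIs per cell for BRIP1 and 0.843 for DUT) weak values are no finding.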

How the data were processed

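Droplet 3′ RNA libraries and hashtag libraries of 2 capture runs of H9 structures were used. The deposited values are whole UMI counts per gene and per hashtag for called cell barcodes. The submitters' processing notes name Cell Ranger 6.1.2, bcl2fastq 2.20.0.422, Seurat 4.3.0 and GRCh38, and the study's methods give hashtag assignment with HTODemux. No authors' cell annotation was used here.

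From these counts, barcodes were assigned to arms from centred-log-ratio hashtag counts by HTODemux in Seurat 5.3.0 (quantile 0.99). Singlets with at most 15% mitochondrial UMIs and at least 7000 (run 1) or 5000 (run 2) UMIs were kept. Hashtag doublets were removed, and doublets within 1 hashtag were not. The counts of all cells of 1 class in 1 arm were added up, and 1 blastoid cell with equal marker sums counted as Epi-like. Sums were tested with edgeR 4.0.16 in R 4.3.3 (quasi-likelihood, trimmed-mean factors, filterByExpr, Benjamini-Hochberg over all genes tested, threshold 0.05) with run or arm as block, since arms of a run share a capture. DESeq2 1.42.0 was an alternative. Aggregate arms, 1 per dose, had no test. CPM ratios with 1 arm a side used 0.5 CPM added. Intervals are exact Poisson at 95% and cover counting error only. Tests were tried on simulated counts first. Gene positions are from GENCODE v44 and promoter sequences from RefSeq. Python 3.11.15, numpy 2.4.6, scipy 1.17.1, pandas 2.3.3 and matplotlib 3.10.9 were used.

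The members, the role groups and the other lists (45 replication genes, 12 inhibitors, 52 G2/M genes, 11 immediate early and stress response genes, cell type markers) were chosen with earlier results of these data known. Named were, per comparison, at most 10 members past the threshold with at least 20 CPM on average, by absolute log2 fold change and with 1 sign in both runs, all MCM2 to MCM7 subunits, at most 6 other replication genes by the same rule, and inhibitors past the threshold. Genes under 20 CPM, near the threshold or of the aggregates that are named besides were chosen after their values were seen. Fibroblast markers summed to 5.4 to 18.8 CPM and amnion markers to 4.4 to 34.9 CPM over the sums.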

Additional observations from a re-analysis of the deposited data

Results flagged for a closer look

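The summed level of the 43 S phase genes moved in opposite directions with dm-αKG at the 2 stages. The log2 ratio of 4 mM over 0 mM was −0.19 in aggregates, 0.15 in Epi-like cells of run 1 and 0.091 in Epi-like cells of run 2. In the same comparison, 24 of the 43 genes were lower in aggregates and higher in Epi-like cells of both runs. The difference between stages was not tested, since aggregates had 1 arm per dose.

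CDKN1C, an inhibitor of cyclin-dependent kinases outside the 43 genes, differed in its dose effect between TE-like and Epi-like cells (log2 1.04, edgeR adjusted p = 0.000549). The value was 4.14 in run 1, where the TE-like control sum held 3 UMIs of it from 18 cells, and 0.61 in run 2. The p-value does not measure that gap between the runs, since its variance was borrowed wholly across genes.

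For ATAD2, the TE-like over Epi-like ratio of run 1 at 0 mM (log2 0.14) stood apart from those of the other 3 arms (0.86, 0.91 and 0.91). It was 1 of 23 genes examined in this way, and chance alone gives such a gap in about 1 in 20 groups of 4.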

How the results depend on the processing

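Of the counts and summed ratios, 116 recomputed values stayed near those reported and 15 moved, and of the values of single genes 358 kept their call, 70 lost it and 0 changed sign past the threshold. The 5 genes higher with dm-αKG in Epi-like cells became 8 with an HTODemux quantile of 0.95, with a 2-fold margin between marker sums, or with no UMI minimum (an alternative added after the data were seen). They became 2 without the 5% of cells with most UMIs, 1 with DESeq2 and 0 with each cell thinned to 5000 UMIs, where 138 genes of all were called in place of 1478. HELLS lost its call only under thinning and without pairing by run. Fits without the replicate block, that is without pairing the arms by run, gave 0 genes higher in Epi-like cells (16 genes of all called), 0 in TE-like cells, and 14 higher and 10 lower between classes.

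Between TE-like and Epi-like cells, library totals without scaling factors (also added after the data were seen) gave 6 genes higher and 16 lower, and thinning 7 and 5, from 42 genes tested. Leaving out 1 blastoid arm at a time gave 9 to 13 higher and 7 to 9 lower, and a summed log2 ratio of −0.12 to −0.03. Leaving out 1 run gave a summed dose ratio of 0.09 to 0.15 in Epi-like cells and −0.12 to 0.06 in TE-like cells. The dose tests have no residual degrees of freedom without 1 arm, so that only values per run were given. Thinning moved the summed ratio to −0.15 in aggregates and to 0.22 for Epi-like cells beside aggregates at 4 mM. Counts of members changed by dose in TE-like cells stayed at 0 in every alternative tried. The causes were not tested. Depth limits the TE-like values most in the run 1 control, with 18 cells, where 3 UMIs amount to 6.57 CPM.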
